A study of Mus musculus with 8 samples.

Results

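The HoxC cluster is the group of homeobox genes that lie side by side on mouse chromosome 15, here Hoxc13, Hoxc12, Hoxc11, Hoxc10, Hoxc9, Hoxc8, Hoxc6, Hoxc5 and Hoxc4, named in their order along the chromosome in RefSeq. Its members were taken as every array probe whose platform symbol is one of these names, which gave 9 genes and 11 probes among 19057 genes on the array. The cluster was taken up with results of the comparison below already known, so its differences between genotypes are given as descriptions, and where a HoxC probe is said to pass or miss the threshold of the fit over all probes, that supports nothing. The cells were sorted for EGFP from hindlimbs of E12.5 mouse embryos (mid-gestation) of the strain label C57BL/6J;129, with 4 arrays from Bapx1 null embryos and 4 from Bapx1 wildtype embryos (Illumina MouseWG-6 v2), given as biological replicates. In the null (Bapx1 tm4.Tlu/tm4.Tlu) both alleles carried EGFP right behind the Bapx1 start codon. In the wildtype (written Bapx1 +/tm2.Tlu) EGFP was read from an internal ribosomal entry site behind the intact coding sequence. EGFP was thus driven by the regulatory elements of Bapx1 itself in both groups, and cells were sorted by that EGFP. Markers of blood, vessel, nerve and surface ectoderm cells were nevertheless read on these arrays, as given below. The number of embryos behind an array was not given in the sources used here.

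Hox genes encode DNA-binding homeodomain proteins that give cells their position along the body axis and along the limb. Genes of a cluster are switched on in the order in which they lie, with the low-numbered genes (Hoxc4 side) active earlier and further toward the head and the high-numbered genes (Hoxc13 side) later and further toward the tail. In limbs the HoxA and HoxD clusters pattern the segments from shoulder or hip to digits, while HoxC genes are used unevenly between forelimb and hindlimb, Hoxc10 and Hoxc11 being known from the hindlimb.

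Intensities were background-corrected, quantile normalized and put on a log2 scale, and a probe counted as above background on an array where its detection p-value was under 0.05. Between 18942 and 20256 of 45281 probes were above background on the null arrays and between 18375 and 19861 on the wildtype arrays. The 2 hindlimb genes Pitx1 and Tbx4 were above background on all 8 arrays and both probes of the forelimb gene Tbx5 on none, and the limb mesenchyme genes Prrx1, Twist1 and Msx1 were above background on all 8. Nkx3-2, the disrupted gene itself (Bapx1 is its older name), was above background by both its probes on 4 of 4 arrays labelled null and on 0 of 4 arrays labelled wildtype. Against the lowest signal above background on the wildtype arrays, they were at least 10.4-fold and 8.07-fold higher in the arrays labelled null. The limma adjusted p of 9.52e-05 for each belongs to the fitted difference, not to these limits. That fit used wildtype readings below background, and both probes could be tested through the null arrays alone. EGFP was inserted into the gene in the null, which need not remove its transcript. That does not cover the wildtype arrays, whose cells were sorted for EGFP read behind the intact Bapx1 coding sequence. There the probes read between -5.3 and 7.5 and between -8.7 and -1.2 in deposited intensity. Why they were below background on those arrays was not tested. Where these probes lie relative to the inserted EGFP was not given in the sources used here, so the labels could not be checked this way, and every direction below follows the sample titles.

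Readable signal was uneven along the HoxC cluster. Hoxc10, Hoxc9 and Hoxc6 were above background on all 8 arrays and Hoxc4 on 6 of 8. Hoxc13 and Hoxc12 were above background on 1 array each, and Hoxc11, Hoxc8 and Hoxc5 on none. Readings below and above background alternated along the chromosome, since Hoxc8 lay between Hoxc9 and Hoxc6, and Hoxc5 lay between Hoxc6 and Hoxc4. A reading below background sets a limit to what the probe could detect and does not show that a gene is off. Levels of different probes were not compared, because probes bind with different efficiency.

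**Figure D1:**
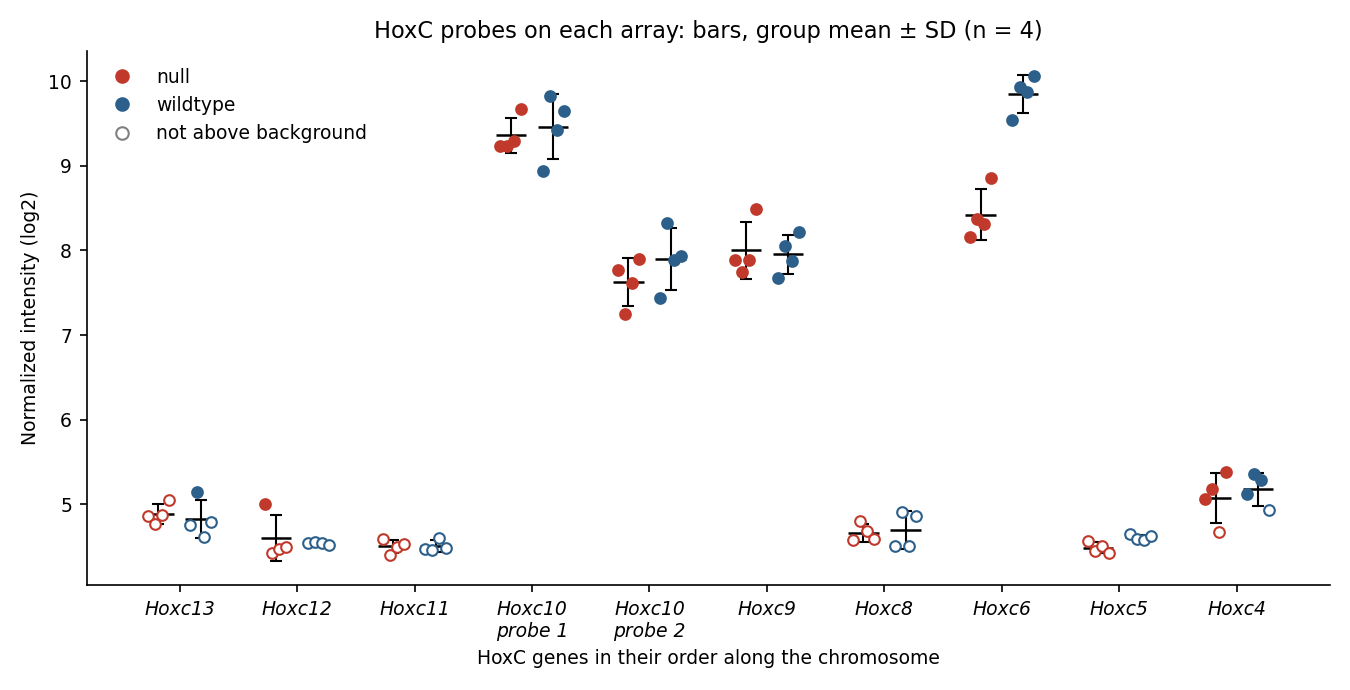
Normalized intensity (log2, vertical axis) of the 10 HoxC probes with a row of their own on each array, with the genes in chromosomal order on the horizontal axis. Red points are null arrays and blue points wildtype arrays, open points were not above background, and bars are the group mean ± SD of 4 arrays. The Hoxc6 points of the null arrays lie between 8.15 and 8.85, below all wildtype points, and the points of Hoxc10, Hoxc9 and Hoxc4 overlap between genotypes.

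Hoxc6 read lower on every array labelled null than on any array labelled wildtype. The array held no second Hoxc6 probe to set beside this reading. Hoxc6 is a homeobox gene of the middle part of the cluster, best known from the thoracic region, the forelimb and the mammary gland. Its normalized log2 readings were 8.15, 8.37, 8.31 and 8.85 on the arrays labelled null, against 9.54, 9.93, 9.87 and 10.06 on the arrays labelled wildtype. The groups did not overlap, and 0.69 log2 units lay between the highest null and the lowest wildtype array. The means were 8.42 ± 0.30 in null and 9.85 ± 0.22 in wildtype cells (SD, n = 4 each), a log2 fold of -1.43 ± 0.18 (SE) or 2.69-fold lower in null. The deposited intensities, before normalization, were 263.2, 220.0, 316.9 and 409.5 on the null arrays and 1003.7, 911.5, 1093.1 and 895.4 on the wildtype arrays. The highest null array thus read below the lowest wildtype array on this scale as well. In RNA of sorted cells, fewer cells carrying Hoxc6 and less Hoxc6 RNA per cell cannot be told apart.

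By limma with Benjamini-Hochberg adjustment over 19568 probes, 149 probes (0.761%) passed an adjusted p of 0.05, of which 86 (0.439%) were lower and 63 (0.322%) higher in null. Of the 5 HoxC probes that could be tested, 1 (Hoxc6) passed it as lower, 0 as higher, and 4 did not pass. After median absolute deviation scaling, the scaling of the study's methods, 10 probes passed (8 higher and 2 lower in null), and by the methods' analysis of variance 7 passed (4 higher and 3 lower). Hoxc6 was not among the probes that passed in either, so its call and the balance of directions depend on the scaling. Groups did not overlap for 1 of these 5 probes, which was lower in null, against 6.29% of all tested probes (3.74% lower and 2.55% higher in null). Because Hoxc6 was known to pass when the cluster was taken up, nothing is read from this count.

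Other sets of genes moved between the same arrays. All 8 platelet markers were tested and all 8 had negative log2 folds (median -2.79), of which 7 passed the threshold as lower in null. Gp9, at -1.14 (limma adjusted p = 0.0587), did not pass. Their summed normalized level was 345 to 1340 on the null arrays, against 5448 to 6325 on the wildtype arrays. Ppbp, Itga2b, Gp1bb and Treml1 were above background on 2 of 4 null arrays and Gp9 on 1, each on 4 of 4 wildtype arrays. These could be tested through the wildtype arrays alone, and their folds rest partly on null readings below background. All 5 red cell markers tested had positive log2 folds (median 2.33), of which 1 (Hbb-bh1, an embryonic globin) passed the threshold as higher in null. Their summed level was 3786 to 26330 on null and 1524 to 3092 on wildtype arrays. Alas2 among them was above background on 4 null and 0 wildtype arrays and could be tested through the null arrays alone. Its positive sign was thus fixed in advance, and its fold is only a limit, at least 3.07-fold higher in null. Of the macrophage (5 tested), endothelial (4), nerve (3), muscle (2) and surface ectoderm (4) markers, 0 passed the threshold. Negative log2 folds were found for 5 of 5 macrophage markers (median -0.42) and 3 of 3 nerve markers (median -0.32). They were also found for 3 of 4 endothelial (median -0.51), 3 of 4 surface ectoderm (median -0.11) and 0 of 2 muscle markers (median 0.63). C1qb, a macrophage marker, was above background on 1 null and 4 wildtype arrays. Above background on all 8 arrays were Csf1r, Lyz2 and Mrc1 of the macrophage list, Pecam1, Cdh5, Tek and Emcn of the endothelial list, Stmn2 and Sox10 of the nerve list, Krt14, Krt18 and Cdh1 of the surface ectoderm list, and Des of the muscle list. Below background on all 8 were Kdr (endothelial), Tubb3 (nerve), Krt5 and Epcam (surface ectoderm) and Myf5, Pax3 and Pax7 (muscle). Myog, a muscle gene, was above background on 4 null and 0 wildtype arrays by its brighter probe, with a log2 fold of 1.0 (limma adjusted p = 0.232), and on 3 of 4 arrays of each genotype by its other probe. The summed nerve level was 286.6 to 477.7 on null and 463.1 to 662.5 on wildtype arrays. The 3 limb mesenchyme genes had a median log2 fold of 1.18, and 0 passed. Prrx1 was at 1.18, Msx1 at 1.43 and Twist1 at -0.07 (limma adjusted p = 0.0994, 0.29 and 0.934). Their summed level, Twist1 included, was 1617 to 3414 on null and 1552 to 2179 on wildtype arrays. The part of these cells in the Hoxc6 difference was not tested.

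Hoxc9 and Hoxc10 lie on the Hoxc13 side of Hoxc6, beyond Hoxc8, and like Hoxc6 were above background on all 8 arrays. Hoxc9 read 7.89, 7.74, 7.89 and 8.49 on the null arrays and 7.67, 8.05, 7.87 and 8.22 on the wildtype arrays. The groups overlapped, with wildtype replicate 1 the lowest and null replicate 4 the highest of all. The means were 8.0 ± 0.33 in null and 7.95 ± 0.23 in wildtype cells (SD, n = 4 each), with a log2 fold of 0.05 ± 0.19 (SE).

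The brighter Hoxc10 probe (probe 1 in the plots) read 9.24, 9.24, 9.29 and 9.67 on the null arrays and 8.94, 9.83, 9.43 and 9.65 on the wildtype arrays. The wildtype arrays held both the lowest and the highest value, and null replicate 4 stood above the other null arrays. Its log2 fold was -0.10 ± 0.20 (SE), from means of 9.36 ± 0.21 in null and 9.46 ± 0.38 in wildtype cells (SD, n = 4 each). The dimmer Hoxc10 probe (probe 2) read 7.77, 7.24, 7.62 and 7.90 on the null arrays and 7.44, 8.33, 7.89 and 7.93 on the wildtype arrays. Here too the groups overlapped, with a log2 fold of -0.26 ± 0.21 (SE) from means of 7.63 ± 0.28 in null and 7.90 ± 0.36 in wildtype cells (SD, n = 4 each). On both Hoxc10 probes wildtype replicate 1 was the lowest and wildtype replicate 2 the highest array of its group, so the probes of this gene ordered those arrays alike.

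Hoxc4 lies at the end of the cluster and is best known from the neck and the front of the trunk. It read 5.07, 5.18, 4.67 and 5.38 on the null arrays and 5.13, 5.36, 5.29 and 4.93 on the wildtype arrays. It was above background on 3 of 4 null and 3 of 4 wildtype arrays, the exceptions being null replicate 3 and wildtype replicate 4, which were also the lowest of their groups. With means of 5.07 ± 0.30 in null and 5.18 ± 0.19 in wildtype cells (SD, n = 4 each), the log2 fold was -0.10 ± 0.17 (SE), and readings this near background understate any difference. Hoxc4 was the HoxC gene nearest to the limit of testing, which asked for signal above background on at least 4 arrays, and Hoxc13 and Hoxc12, with 1 array each, were the nearest below it.

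The 5 other genes could not be tested. Hoxc13, known from hair and nails, had deposited intensities of 11.9, 7.0, 11.6 and 15.9 on the null arrays and 11, 19.9, 4.3 and 7.0 on the wildtype arrays, with wildtype replicate 2 as the array above background. Hoxc12 read 16 on null replicate 1, where it was above background, and between -3.8 and 1.4 on the other 7 arrays. Negative values here are spots dimmer than the background subtracted from them. Hoxc11, a hindlimb gene by its known pattern, read between -5.0 and 3.7 by the probe that could be followed, and its second probe was below background on all arrays too. Hoxc8, a gene of the lower thorax, read 2.4, 7.6, 6.2 and 3.1 on the null arrays and -0.9, 13.6, -0.7 and 8.5 on the wildtype arrays. Hoxc5, which lies between Hoxc6 and Hoxc4, read 2.1, -2.6, -0.5 and -5.2 on the null arrays and 6.4, 2.8, 2.7 and 2.7 on the wildtype arrays. All Hoxc5 readings were below background, and the order of such readings was given no weight.

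To set Hoxc6 against Hoxc9 and Hoxc10 within each array, where a shift of a whole array cancels, the log2 reading of either was taken from that of Hoxc6. Each difference was centred on its mean over the 8 arrays. Hoxc6 less Hoxc9 was -0.89, -0.53, -0.74 and -0.79 on the null arrays and 0.71, 0.72, 0.84 and 0.68 on the wildtype arrays. All null arrays thus lay below the mean and all wildtype arrays above it, with a difference of -1.48 (null minus wildtype). Hoxc6 less the brighter Hoxc10 probe lay between -0.81 and -0.54 in null and between 0.38 and 0.87 in wildtype arrays, a difference of -1.33. For the dimmer Hoxc10 probe the ranges were -0.98 to -0.25 in null and 0.24 to 0.75 in wildtype arrays, a difference of -1.17. From the deposited intensities, with no normalization, the differences were -1.52 against Hoxc9 and -1.37 and -1.21 against the brighter and the dimmer Hoxc10 probe. Hoxc6 thus changed unequally to Hoxc9 and Hoxc10 on the same arrays, which does not by itself say which of them moved.

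**Figure D2:**
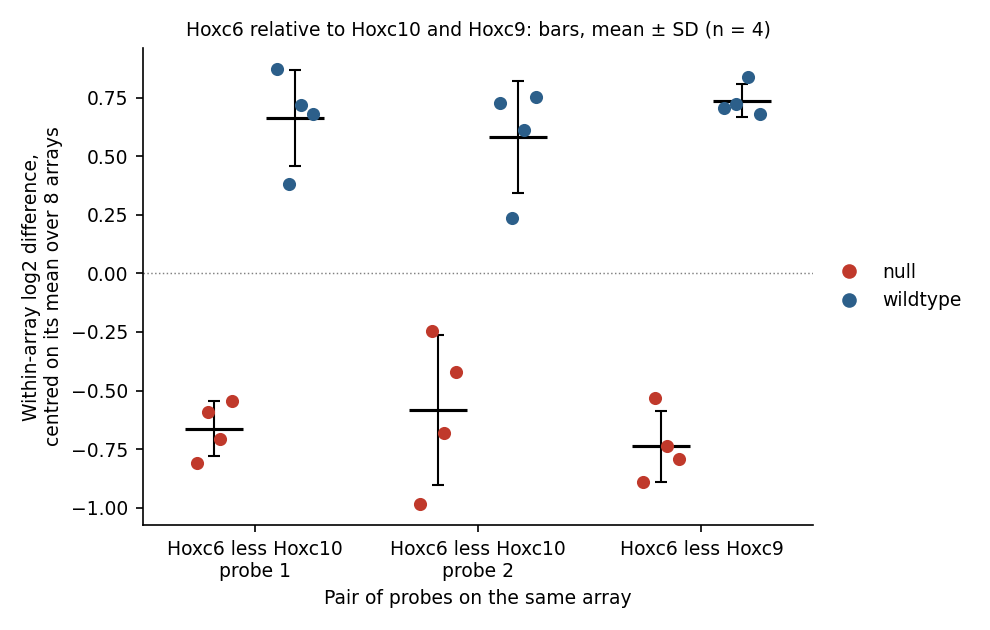
Hoxc6 less Hoxc10 (2 probes) and less Hoxc9 on the same array, as log2 differences centred on their mean over 8 arrays (vertical axis), for null (red, left) and wildtype (blue, right) arrays. Bars are the mean ± SD of 4 arrays, and for each pair all null points lie below 0 and all wildtype points above it.

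The other Hox clusters were measured on the same arrays. Of 10 HoxA genes on the array 8 were tested, of 9 HoxD genes 7, and of 10 HoxB genes 2 (Hoxb2 and Hoxb7), and for each gene the brightest tested probe was used. Above background on all 8 arrays were 7 HoxA genes (Hoxa2, Hoxa4, Hoxa5, Hoxa7, Hoxa9, Hoxa11 and Hoxa13), 6 HoxD genes (Hoxd3, Hoxd4, Hoxd8, Hoxd9, Hoxd10 and Hoxd12), 0 HoxB genes and the 3 HoxC genes named above. None of the tested HoxA, HoxB and HoxD genes passed the threshold. The log2 folds ran between -0.49 and 0.67 in HoxA (median 0.10) and between -0.55 and 0.67 in HoxD (median 0.04), and those of Hoxb7 and Hoxb2 were 0.09 and 0.61. Over the 4 tested HoxC genes the median was -0.10, and over all 10772 genes tested it was -0.04, with 36 higher and 66 lower in null past the threshold.

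**Figure D3:**
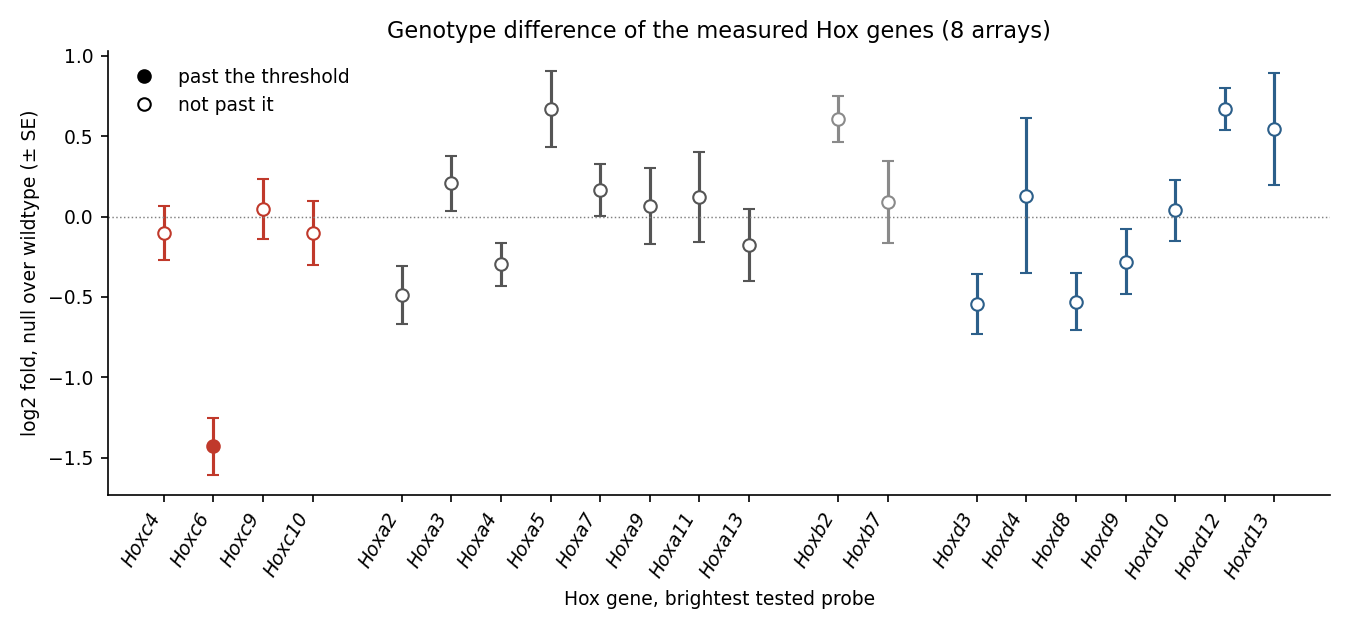
Log2 fold of null over wildtype ± SE (vertical axis) for the brightest tested probe of each Hox gene, grouped by cluster with HoxC first. Filled points passed an adjusted p of 0.05 and open points did not. Hoxc6 at -1.43 is the filled point, and the tested genes of the other clusters lie between -0.55 and 0.67.

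Genes with the same number in different clusters are paralogs and often act together. The paralogs of Hoxc6 gave little signal. Hoxa6 was below background on all 8 arrays, and Hoxb6 was above background on 2 of 4 null and 0 of 4 wildtype arrays. Of the other clusters, Hoxd12, a gene of the distal limb, came nearest to the threshold, with readings of 9.75, 10.13, 9.89 and 10.07 on the null arrays and 9.38, 9.11, 9.26 and 9.40 on the wildtype arrays. The groups did not overlap, and the log2 fold was 0.67 ± 0.13 (SE, limma adjusted p = 0.0591), while its second probe was below background on all arrays. Hoxa5 had a log2 fold of 0.67 ± 0.24 (SE, limma adjusted p = 0.326), with overlapping groups. Hoxa2 had -0.49, Hoxa4 -0.30, Hoxd8 -0.53, Hoxd3 -0.54 and Hoxb2 0.61 (limma adjusted p between 0.124 and 0.45). Hoxb2 was above background on 4 null arrays and on 1 wildtype array.

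Hox proteins bind DNA together with cofactors of the TALE class, the Meis, Pbx and Pknox homeodomain proteins. Of 9 such genes 8 were on the array and 6 were tested, and none passed the threshold. Their log2 folds ran from -0.54 (Meis2) to 0.46 (Meis1), with Pknox2 at -0.35 (limma adjusted p = 0.345, the lowest of the list). Hox clusters are also kept silent by Polycomb proteins, held active by Trithorax proteins and opened by retinoic acid. Of 32 such regulators 25 were tested, of which 2 passed the threshold as higher in null, 0 as lower and 23 did not pass. Their median log2 fold was 0.04. Both that passed belong to the retinoic acid pathway.

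Rarb, a retinoic acid receptor that is itself switched on by retinoic acid, read 6.91, 7.48, 7.59 and 7.71 on the null arrays and 6.24, 5.97, 6.08 and 6.04 on the wildtype arrays. The groups did not overlap, with a log2 fold of 1.34 ± 0.18 (SE, limma adjusted p = 0.00996), and a second probe gave 1.38 (limma adjusted p = 0.0447). Aldh1a2, the enzyme that makes retinoic acid in the embryo, read 6.20, 7.17, 6.89 and 7.33 on the null arrays and 5.49, 5.36, 5.51 and 4.89 on the wildtype arrays, where it was above background on 3 of 4. Its log2 fold was 1.58 ± 0.25 (SE, limma adjusted p = 0.0242), and its second probe gave 0.96 without passing (limma adjusted p = 0.0652). The second Aldh1a2 probe was above background on 4 null and 1 wildtype arrays, so its fold rests partly on wildtype readings below background. Cdx1, a homeobox gene that acts upstream of Hox genes, had the next lowest p of the list with a log2 fold of -0.30 (limma adjusted p = 0.355).

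Around the cluster, 23 protein-coding genes lay within 500 kb of it in RefSeq (GRCm38.p6), of which 18 were tested. Of these 1 passed the threshold as higher in null, 1 as lower and 16 did not pass, with a median log2 fold of -0.10. Nfe2, a transcription factor of the platelet and red cell lineages, read 5.52, 5.88, 6.05 and 5.80 on the null arrays and 6.52, 6.73, 6.83 and 6.80 on the wildtype arrays. It fell by 0.91 ± 0.14 on the log2 scale (SE, limma adjusted p = 0.0224), beside the platelet markers given above. Ppp1r1a, an inhibitor of protein phosphatase, read 9.06, 8.81, 9.17 and 8.92 on the null arrays and 8.17, 8.01, 8.29 and 8.40 on the wildtype arrays, with a log2 fold of 0.77 ± 0.13 (SE, limma adjusted p = 0.0362). Pde1b had 0.75 (limma adjusted p = 0.108), and Cbx5, which encodes a heterochromatin protein, had 1.13 ± 0.26 (SE, limma adjusted p = 0.113). The nearest genes on either side were Calcoco1 beyond Hoxc13, at -0.61 (limma adjusted p = 0.374), and Smug1 beyond Hoxc4, at -0.02. Neither of these passed the threshold.

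The named genes whose 8 readings, centred on their mean, lay nearest to those of Hoxc6 were Trhde, a peptidase that breaks down thyrotropin-releasing hormone (root mean square difference 0.183 log2 units over 8 arrays), Ifi47, an interferon-induced GTPase (0.214), Lcp2, an adaptor protein of T cells and platelets (0.219), Mmp9, a matrix metalloproteinase (0.229), and Ppp2r2b, a regulatory subunit of protein phosphatase (0.236). None of them is a Hox gene. Mmp9 read 5.84, 6.18, 6.20 and 6.18 on the null arrays and 7.43, 7.29, 7.23 and 7.70 on the wildtype arrays. Ppp2r2b read 7.31, 7.78, 8.16 and 7.87 on the null arrays and 9.03, 9.25, 9.16 and 9.28 on the wildtype arrays. Both were lower on every null array than on any wildtype array, as likeness to Hoxc6 requires. Trhde, Mmp9 and Ppp2r2b were above background on all 8 arrays. Ifi47 and Lcp2 were above it on 4 wildtype and 0 null arrays, so their null readings are only limits, and neither their distance from Hoxc6 nor their place in this order can be relied on.

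Hoxc6 was also followed through other ways of processing the same 8 arrays, which describes how its size moved and is no further evidence for it. Its log2 fold lay between -1.59 and -1.30 in the 18 other fits, and between -1.57 and -1.34 when each array was left out in turn. After median absolute deviation scaling, where it missed the threshold, it was -1.42. Under that scaling the groups did not overlap, at 7.86 to 8.66 on the null arrays and 8.84 to 11.22 on the wildtype arrays, while the SD of the wildtype arrays was 1.01 instead of 0.22. The value of 11.22 was wildtype replicate 4, and the other wildtype arrays read 8.84, 9.49 and 9.60. Under the same scaling that array was also the highest for Hoxc9 (8.92) and for the brighter Hoxc10 probe (10.72). In the fit with array weights it had the lowest weight (0.37). The part of this array in the missed threshold was not tested.

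**Figure D4:**
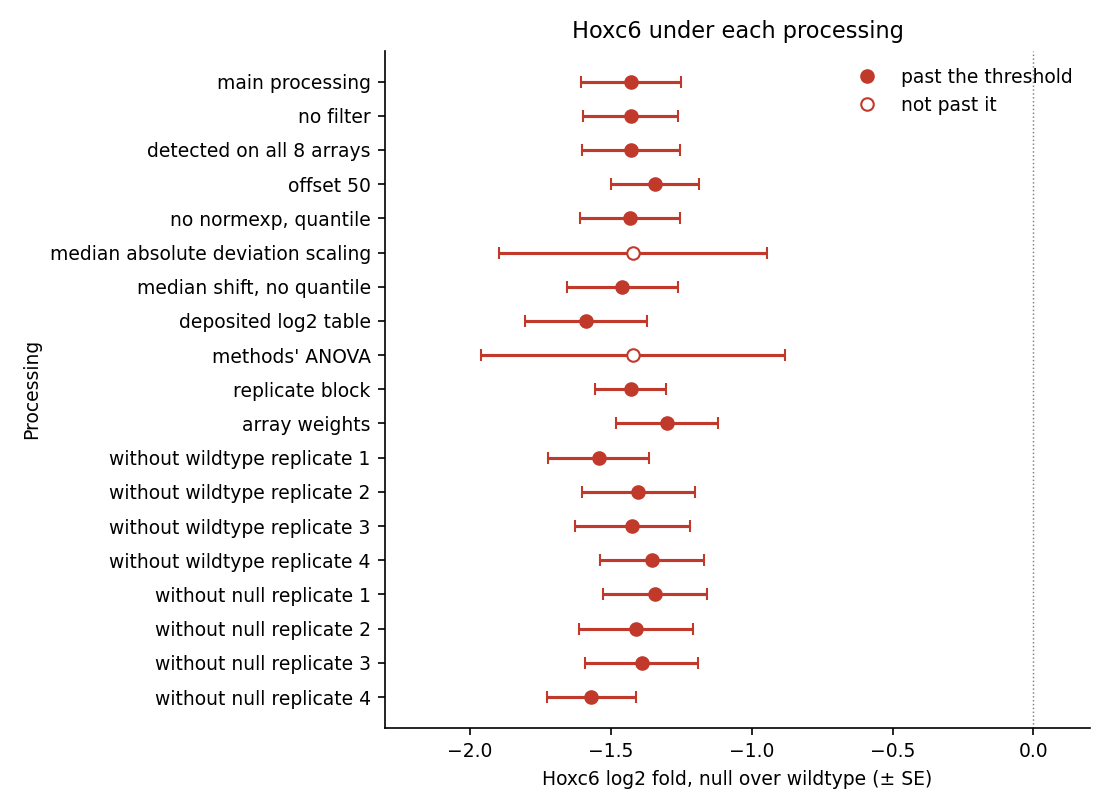
Hoxc6 log2 fold of null over wildtype ± SE (horizontal axis) under each way of processing the arrays (rows). Filled points passed an adjusted p of 0.05, and open points, both from median absolute deviation scaling, did not. All points lie between -1.59 and -1.30.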

How the data were processed

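Hindlimb cells sorted for EGFP were profiled on 8 Illumina arrays, 4 null and 4 wildtype, grouped by sample title. The authors deposited a table of background-subtracted probe intensity from GenomeStudio with a detection score per array (1 minus the detection p-value). They also deposited a table of log2 values. The intensity table carried other probe numbers than the annotation, so its rows were matched to the log2 table by their values (tolerance 1e-05). Of 45281 rows 35454 matched exactly 1 row, and the other 9827 were below background on every array. Matched rows equalled log2 intensities (floored at 1) up to a shift per array and a constant per probe (largest residual 1.79e-06). Scaling of the spread was thus not part of the log2 table. Of 11 HoxC probes 10 were matched. The platform annotation gave 34885 probes 1 symbol, 18 several and 10378 none. From 30.9% to 34.3% of the intensities of an array were below 1.

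Intensities were corrected with neqc (limma 3.58.1, R 4.3.3, negative controls inferred from detection p-values, offset 16, quantile normalization, log2). Probes with detection p under 0.05 on at least 4 of 8 arrays were tested (19568), with lmFit and eBayes, two-sided, and Benjamini-Hochberg adjustment at 0.05. The median SE of a log2 fold was 0.16, and 4 arrays a group limit the precision. The pipeline was tested on simulated data. The genes named are all HoxC genes, members of the lists past the threshold or otherwise up to 3 with the lowest p, the paralogs of Hoxc6, and the 5 genes nearest to Hoxc6. The HoxC genes and the lists were chosen with earlier results of these data known. Alternatives were other filters, offsets and scalings, the deposited log2 values, the methods' analysis of variance, array weights, a replicate block and leaving out each array.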

Additional observations from a re-analysis of the deposited data

Results flagged for a closer look

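In 2 groups of 4 arrays, 1 array stood apart from the others by more than Dixon's 95% limit, among 14 groups checked, and chance flags about 1 in 20. For Hoxc12 this was null replicate 1, whose gap to the nearest null array was 0.884 of the range of the group. The same reading, an intensity of 16, was above background, while 0 of 4 wildtype arrays were. For the brighter Hoxc10 probe it was null replicate 4, with a gap of 0.870 of the range.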

How the results depend on the processing

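The number of probes past the threshold, 149 (63 higher and 86 lower in null), was 97 (45 and 52) with probes above background on all 8 arrays, 10 (8 and 2) after median absolute deviation scaling, 65 (25 and 40) on the deposited log2 values, 7 (4 and 3) by the methods' analysis of variance, 267 (124 and 143) with array weights, and 50 to 142 without 1 array, lowest without wildtype replicate 3. It was also lower by over 1.5 times without wildtype replicate 1 (77) and without null replicates 2 (87), 3 (80) and 4 (71). The number of HoxC probes past it was 0 instead of 1 after median absolute deviation scaling and by the methods' analysis of variance (1 at an unadjusted p under 0.05 in each), with Hoxc6 at -1.42 in both and at -1.59 to -1.30 elsewhere. Relative to Hoxc9 and Hoxc10, an alternative chosen after seeing the data, Hoxc6 differed by -1.32. Hoxc4 was at -0.43 on the deposited values and -0.37 after median absolute deviation scaling. The median of all tested probes was -0.03 and -0.11 on the deposited values. The cause of these shifts was not tested. The 2 array groups share replicate numbers, but same-numbered arrays deviated together unevenly (r = 0.07, 0.46, 0.26 and -0.31), and 2 of 4 null arrays correlated best with their own number. With the replicate number as a block, 108 probes passed, and Hoxc6 was at -1.43. A chip block was not run, as no chip was named in the files. Signal near background limits Hoxc4 and leaves Hoxc5, Hoxc8, Hoxc11, Hoxc12 and Hoxc13 without a test.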
